A study of Mus musculus with 32 samples.

Results

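Gpc3, Gpc4 and Hs6st2 are 3 X-linked mouse genes of the heparan sulfate system, and the values below are their levels in XEN cells, which are stem cells derived from extraembryonic endoderm. The 3 rows were taken by gene name from 4 tables that list 1006 X-linked genes in all, and they were chosen by name after their FPKM on both X chromosomes and the share from the inactive one had been seen in every group, so their values are a description. All 3 genes were listed in all 4 tables and passed the filter on low values in each of them. The 32 RNA samples came from cells of a 129S1/SvImj by JF1/Ms cross and fall into 12 groups. The first table holds XistpA (4 samples), XRR_KO (2 samples, 1 from each of 2 clones), XRRa_KO (3 samples) and WT (3 samples). The second holds XRRb_XiKO, XRRb_XaKO, XRRc_XiKO and XRRc_XaKO with 2 samples each. The third holds Rad21 degron cells treated with dTAG or with DMSO, 4 samples each from 2 clones. The fourth holds Ctcf degron cells treated for 48 h with dTAG or with DMSO, 2 samples each. dTAG is a small molecule that makes a tagged protein be degraded, and DMSO is its solvent. The labels do not spell out what the names XistpA, XRR, XRRa, XRRb and XRRc change. The names XaKO and XiKO read as knockouts on Xa, the X that stays active, or on Xi, the silenced one.

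Glypicans are proteins held on the outer face of the cell membrane by a lipid anchor, and they carry heparan sulfate, a long sulfated sugar chain. Heparan sulfate binds growth factors and morphogens such as fibroblast growth factors, Wnt and Hedgehog proteins, and enzymes in the Golgi set where on the chain the sulfate groups sit. In the embryo, endoderm of the yolk sac is a known site of glypican expression, and loss of human GPC3 causes an overgrowth syndrome.

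For every gene, a group has 1 merged FPKM value on Xa and 1 on Xi, which is a level per transcript length and sequencing total. No difference therefore has a replicate check, and no SD, p-value or interval is given. The sequencing depth is unknown. Levels are compared within a table, while ratios and shares formed inside a column are also set beside those of other tables. A change is the difference of log2(FPKM + 0.5), which understates changes of low genes, and a change of 1 or more in size is called past the size rule. Of the genes listed, 270, 261, 247 and 277 passed the filter in the 4 tables in the order above, and these are called tested genes, although no statistical test was made. In bulk samples such as these, fewer cells expressing a gene and less of its RNA per cell cannot be told apart. Xist, the RNA that coats the inactive X, was listed on Xi at 0 FPKM in XistpA, 1.18 in XRR_KO, 7.86 in XRRa_KO and 15.5 in WT. The defining XEN genes Gata6, Gata4, Sox17, Foxa2 and Dab2 are not X-linked and were not analysed here. Of the X-linked markers of pluripotent cells, Dusp9 was listed at 0 in all 12 groups, and Nr0b1 was at 0 on Xa in all 12 with 0.00875 FPKM on Xi in XRR_KO. The trophoblast marker Plac1 lay between 0.306 and 3.60 FPKM on Xa.

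The 3 genes lie close together on the X and are all read from the minus strand. In the RefSeq gene order of GRCm38.p6, Gpc4 and Gpc3 are adjacent, with 0 protein-coding genes between them, and 2 protein-coding genes lie between Hs6st2 and Gpc4. The 250 bases upstream of each start site are shown because the 2 glypican genes, although adjacent, took different levels in several groups. Sequences are those of RefSeq in GRCm38.p6, another build than the mm9 named by the submitters, and run 5′ to 3′ along the gene. Hs6st2 has 2 start sites in that table. Capitals mark matches, on either strand, to the GC box GGGCGG, the TATA box TATAAA, or the letters AGGGGGC from the core of the CTCF motif.
Gpc3, chrX:52613975-52614224, minus strand: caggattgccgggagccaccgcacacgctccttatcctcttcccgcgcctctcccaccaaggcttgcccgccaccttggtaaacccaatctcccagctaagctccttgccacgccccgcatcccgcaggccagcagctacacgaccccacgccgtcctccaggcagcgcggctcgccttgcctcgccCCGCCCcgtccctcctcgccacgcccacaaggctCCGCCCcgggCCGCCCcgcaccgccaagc
Gpc4, chrX:52164924-52165173, minus strand: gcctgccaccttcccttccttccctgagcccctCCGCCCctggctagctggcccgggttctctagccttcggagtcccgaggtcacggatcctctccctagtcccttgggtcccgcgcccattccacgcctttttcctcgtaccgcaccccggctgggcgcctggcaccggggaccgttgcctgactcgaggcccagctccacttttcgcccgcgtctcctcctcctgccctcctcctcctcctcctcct
Hs6st2 upstream start, chrX:51681603-51681852, minus strand: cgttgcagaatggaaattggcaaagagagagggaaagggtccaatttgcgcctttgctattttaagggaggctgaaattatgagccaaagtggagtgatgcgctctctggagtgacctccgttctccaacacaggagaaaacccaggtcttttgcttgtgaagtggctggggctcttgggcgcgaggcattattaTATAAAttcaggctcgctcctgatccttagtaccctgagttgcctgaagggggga
Hs6st2 downstream start, chrX:51680478-51680727, minus strand: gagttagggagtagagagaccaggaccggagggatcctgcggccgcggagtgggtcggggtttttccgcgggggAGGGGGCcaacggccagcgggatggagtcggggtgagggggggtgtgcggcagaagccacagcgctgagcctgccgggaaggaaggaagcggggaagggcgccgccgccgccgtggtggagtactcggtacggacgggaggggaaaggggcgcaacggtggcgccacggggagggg

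Both glypican windows are rich in G and C. The Gpc3 window holds 25 CpG pairs and 3 GC boxes, all written as CCGCCC in it, and the Gpc4 window holds 18 CpG pairs and 1 GC box. Over 32851 such windows of mouse genes, the median was 6 CpG pairs, 10.7% had as many as Gpc3 and 21.7% as many as Gpc4, and 32.7% held a GC box. The windows of the 2 Hs6st2 start sites differ. The upstream one has 7 CpG pairs and a TATA box that begins 55 bases before the start, a motif found in 12.4% of all windows. The downstream one has 26 CpG pairs and 1 match to AGGGGGC, which 9.43% of windows hold. No match was found to AGATGGC, also from the CTCF core, or to the GATA letters AGATAA, in any of the 4 windows (4.57% and 9.99% of all windows). Matches are letters only and were not set against any measure of binding. The tables give 1 value per gene, so use of the 2 Hs6st2 start sites was not measured.

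Gpc3, the glypican known for restraining Hedgehog signalling in the mouse, was the most expressed of the 3 on Xa in 10 of the 12 groups. On Xa it stood at 8.54 FPKM in XistpA, 11.4 in XRR_KO, 37.3 in XRRa_KO and 19.4 in WT. XRRa_KO was the highest of these 4 and XistpA the lowest, a range of 4.37-fold. Measured as a log2 range over the 4 columns, this was 2.06, the 7th largest of 270 tested genes, whose median range was 0.54. In the second table Gpc3 was at 20.0 FPKM in XRRb_XiKO, 9.18 in XRRb_XaKO, 10.0 in XRRc_XiKO and 30.4 in XRRc_XaKO. Its range of 3.31-fold ranked 7th of 261, and the column highest in level was an XaKO column, as was the lowest. Gpc3 was at 12.3 FPKM with dTAG and 24.4 with DMSO in Rad21 degron cells. It was at 17.1 FPKM with dTAG and 18.1 with DMSO in Ctcf degron cells. By level, Gpc3 ranked 133rd of 270 tested genes in XistpA, 59th in XRRa_KO and 78th in WT. The libraries keep no strand, so Gpc3 reads may include some of the antisense gene A630012P03Rik. That gene overlaps Gpc3 and was listed at 0.224 FPKM or less on Xa. Another overlapping antisense gene, Gm14582, was listed in no group, so its level is unknown.

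Gpc4, a glypican that binds Wnt and fibroblast growth factor signals, was lower on Xa than its neighbour in every group. It was at 3.27 FPKM in XistpA, 1.82 in XRR_KO, 4.52 in XRRa_KO and 3.63 in WT. XistpA and WT lay close to each other, and XRR_KO stood apart below them. In the second table Gpc4 was at 3.30 FPKM in XRRb_XiKO, 5.95 in XRRb_XaKO, 1.60 in XRRc_XiKO and 3.54 in XRRc_XaKO. The range of 3.72-fold ranked 8th of 261 genes. Rad21 degron cells had 3.26 FPKM with dTAG and 3.30 with DMSO, and Ctcf degron cells had 7.86 with dTAG and 5.43 with DMSO.

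Hs6st2 encodes a Golgi enzyme that adds sulfate to the glucosamine units of heparan sulfate. On Xa it was at 12.7 FPKM in XistpA, 8.93 in XRR_KO, 9.19 in XRRa_KO and 8.26 in WT. XistpA was the highest, and the other 3 columns lay within 1 FPKM of each other. In the second table Hs6st2 was at 7.17 FPKM in XRRb_XiKO, 2.31 in XRRb_XaKO, 11.9 in XRRc_XiKO and 3.54 in XRRc_XaKO. Its range of 5.15-fold ranked 5th of 261 genes. Rad21 degron cells had 3.89 FPKM with dTAG and 4.75 with DMSO, and Ctcf degron cells had 5.12 with dTAG and 4.86 with DMSO.

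**Figure D1:**
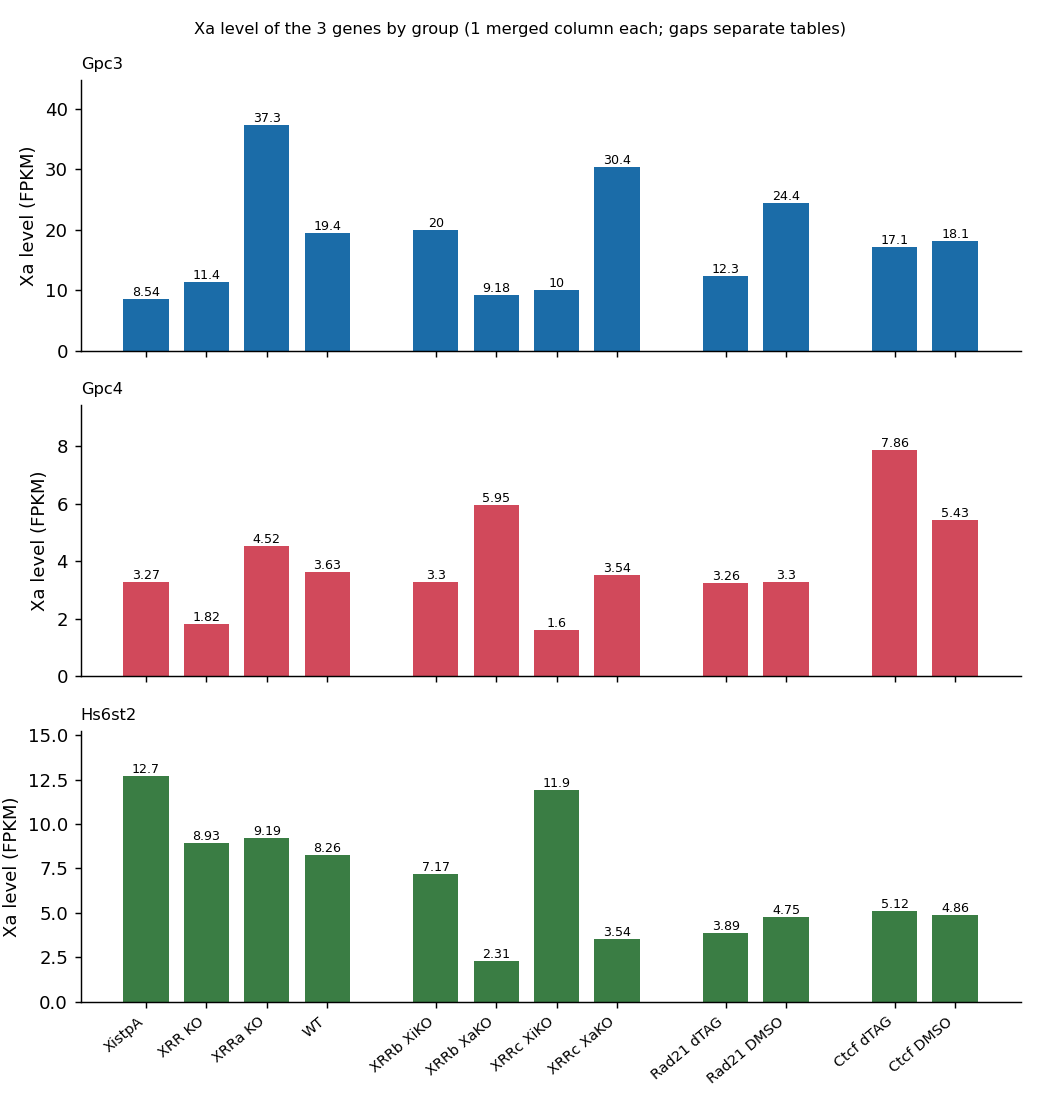
Xa level in FPKM (vertical axis, from 0) of Gpc3, Gpc4 and Hs6st2 in the 12 groups, with 1 bar for each merged column, no error bar because no replicate values are given, and gaps between the 4 tables. Among the columns with WT, Gpc3 is highest in XRRa_KO (37.3 FPKM). Among the XiKO and XaKO columns, Gpc4 is lowest in XRRc_XiKO (1.60 FPKM), and Hs6st2 is above 7 FPKM in both XiKO columns and below 4 FPKM in both XaKO columns.

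Over 7 comparisons, 5 of the 21 pairs of gene and comparison were past the size rule on Xa, 3 higher and 2 lower. By comparison, 0.370% to 6.48% of all tested genes were higher by the rule and 0.370% to 15.0% lower. The genes were chosen with these values known, so the count is a description. Set against WT, Gpc3 was the only one of the 3 genes past the size rule, and only in XistpA, where its Xa change was -1.14 (2.27-fold lower). In that comparison 3.33% of all tested genes were lower and 1.11% higher on Xa by the rule. The changes of Gpc4 and Hs6st2 in XistpA were -0.13 and 0.59, neither of which met the rule. In XRR_KO both glypicans had lower values than in WT, with changes of -0.74 for Gpc3 and -0.83 for Gpc4, and Hs6st2 had 0.11. None of these met the rule, by which 1.11% of tested genes were higher and 3.70% lower, and the median Xa change of all tested genes was -0.19. With columns scaled to equal medians, that split of 3 higher and 10 lower genes became 6 and 7, and centred on the median change it became 7 and 4. In XRRa_KO the Gpc3 change was 0.93, which did not meet the rule but was the 3rd largest in size among 270 genes, of which 0.370% were higher and 0.370% lower by it. Gpc4 and Hs6st2 changed by 0.28 and 0.15 there. The 3 comparisons share the WT column.

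XiKO was set against XaKO in the XRRb and the XRRc cells. Both sides are knockouts by name, and no WT column was listed beside them. A raised XiKO level and a lowered XaKO level therefore cannot be told apart. Hs6st2 was higher in XiKO in both, by 1.45 in XRRb (3.10-fold) and by 1.62 in XRRc (3.37-fold). Gpc3 was higher in XiKO by 1.08 in XRRb (2.18-fold) and lower by 1.55 in XRRc (3.03-fold), so its direction was opposite. Gpc4 had lower values in both, -0.76 in XRRb (1.81-fold) and -0.95 in XRRc (2.21-fold), without meeting the rule. Its levels are low, and with a pseudocount of 0.1 the change in XRRc was -1.10, past the rule. On Xa, 0.766% of all tested genes were higher and 2.30% lower by the rule in XRRb, and 1.15% were higher and 1.15% lower in XRRc. The 2 genes higher in XRRb were Gpc3 and Hs6st2 themselves. These contrasts were among those used to choose the genes, so the counts are a description.

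The 2 XaKO columns also differed from each other. Set against XRRc_XaKO, XRRb_XaKO had a Gpc3 change of -1.67, a Gpc4 change of 0.68 and an Hs6st2 change of -0.52, while 1.92% of all tested genes met the rule between these columns. With the XaKO columns exchanged, a setting added after the values were seen, the Gpc3 change became -0.59 for XRRb_XiKO and 0.12 for XRRc_XiKO, so both directions turned round. The Hs6st2 change stayed positive, at 0.93 for XRRb_XiKO, which no longer met the rule, and at 2.14 for XRRc_XiKO. In the same order, the Gpc4 changes stayed negative, at -0.09 and -1.62. Taken as 2 columns against 2, Hs6st2 was higher in both XiKO columns than in both XaKO columns (means of 9.55 and 2.93 FPKM), which was so for 7.28% of tested genes. Gpc4 was lower in both XiKO columns (means of 2.45 and 4.75 FPKM), which was so for 31.4% of tested genes. The Gpc3 columns overlapped.

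**Figure D2:**
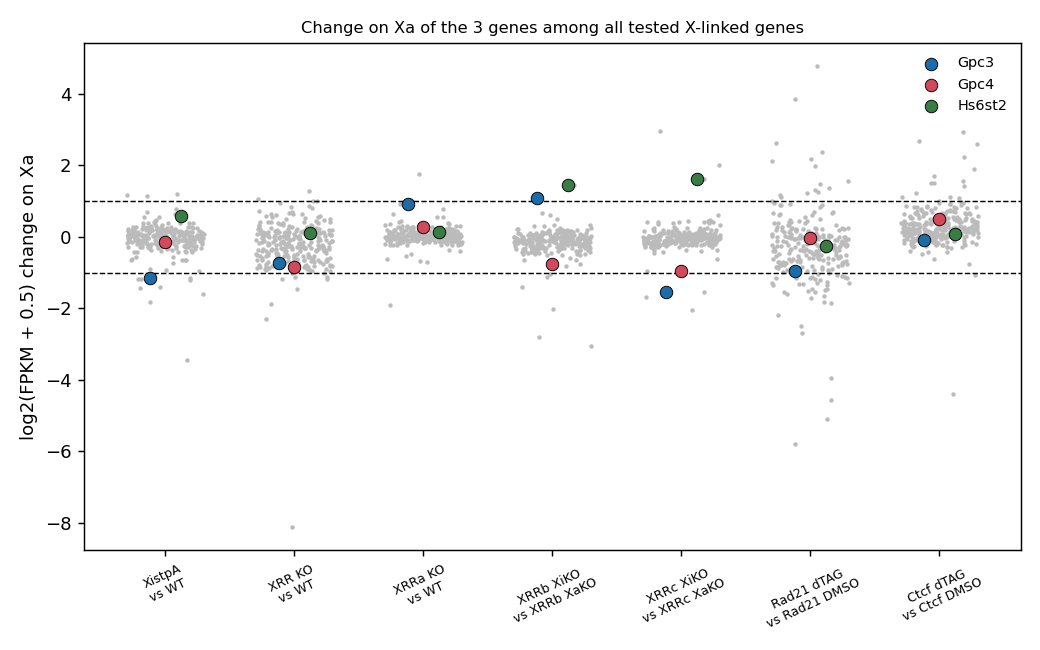
Change in log2(FPKM + 0.5) on Xa (vertical axis) for Gpc3, Gpc4 and Hs6st2 (coloured points) and all other tested X-linked genes (grey points) in the 7 comparisons, with dashed lines at the size rule of 1. Gpc3 lies below -1 in XistpA and XRRc_XiKO and above 1 in XRRb_XiKO, and Hs6st2 lies above 1 in both XiKO comparisons.

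Degradation of the cohesin subunit Rad21 was tested by dTAG against DMSO. The Gpc3 change was -0.96, which did not meet the rule and ranked 56th in size of 247 genes, of which 6.48% were higher and 15.0% lower (16 and 37 genes). Gpc4 and Hs6st2 changed by -0.02 and -0.26, beside a median of -0.26 over all tested genes. With columns scaled to equal median Xa FPKM, the values were -0.56 for Gpc3, 0.34 for Gpc4 and 0.11 for Hs6st2, and the split became 26 higher and 19 lower. Centred on the median change, it was 22 higher and 26 lower. For Ctcf, a protein that binds DNA at the borders of chromatin domains, the changes with dTAG were -0.08 for Gpc3, 0.49 for Gpc4 and 0.07 for Hs6st2. None met the rule, by which 5.42% of tested genes were higher and 0.722% lower, and the median change was 0.23. Centred on that median, the values were -0.31, 0.26 and -0.16. Rad21 and Ctcf lie on other chromosomes and were not analysed here, so how far each was depleted is not shown.

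Ratios between genes of the same column do not depend on how columns were scaled. The Gpc3 to Gpc4 ratio of Xa FPKM was 2.61 in XistpA, 6.25 in XRR_KO, 8.25 in XRRa_KO and 5.33 in WT. It was 6.07 in XRRb_XiKO, 1.54 in XRRb_XaKO, 6.27 in XRRc_XiKO and 8.57 in XRRc_XaKO. The ratios of the 2 XiKO columns were therefore close to each other and to XRR_KO (6.25), and above WT (5.33). The levels behind these 2 ratios were not alike, with Gpc3 at 20.0 and 10.0 FPKM and Gpc4 at 3.30 and 1.60 FPKM. XRRb_XaKO had the lowest ratio of all 12. With dTAG and DMSO the ratio was 3.78 and 7.38 in Rad21 degron cells, and 2.18 and 3.33 in Ctcf degron cells, lower with dTAG in both. Gpc3 made up between 60.6% of the glypican pair, in XRRb_XaKO, and 89.6%, in XRRc_XaKO. The Hs6st2 to Gpc4 ratio spanned a wider range, from 0.389 in XRRb_XaKO to 7.46 in XRRc_XiKO. It was 3.89 in XistpA, 4.91 in XRR_KO, 2.03 in XRRa_KO and 2.27 in WT. Hs6st2 exceeded Gpc3 in 2 groups, XistpA (a ratio of 1.49) and XRRc_XiKO (1.19).

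**Figure D3:**
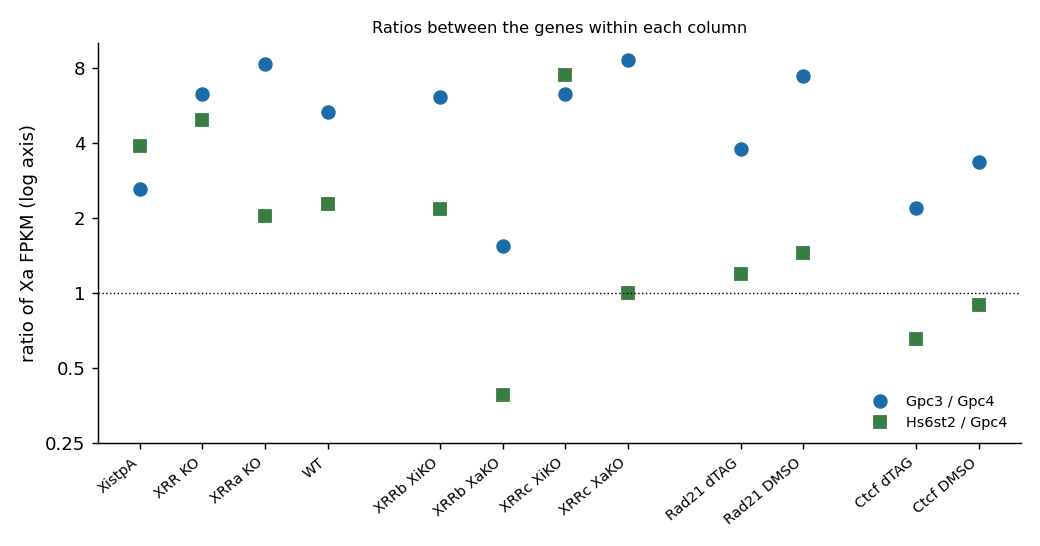
Ratio of Xa FPKM within each merged column (vertical axis, log scale) of Gpc3 to Gpc4 (circles) and of Hs6st2 to Gpc4 (squares) in the 12 groups, with a dotted line at 1 and gaps between tables. The Gpc3 to Gpc4 ratio is above 1 in every group and lowest in XRRb_XaKO (1.54), while the Hs6st2 to Gpc4 ratio runs from 0.389 in XRRb_XaKO to 7.46 in XRRc_XiKO.

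On the inactive X the 3 genes were at or near 0. Gpc3 and Gpc4 were listed at 0 on Xi in all 12 groups, as were 38 of 233 genes tested in all 4 tables (16.3%). Hs6st2 was above 0 in 3 groups, with 0.0385 FPKM in XistpA, 0.0178 in XRRb_XiKO and 0.0180 in XRRc_XiKO, and was listed at 0 in WT, both XaKO columns and the other 6. Its Xi share of Xa plus Xi FPKM was 0.302%, 0.247% and 0.151% in these 3 groups. There, the median Xi level of tested genes above 0 was 0.281, 0.227 and 0.175 FPKM, well over the Hs6st2 values. Of the 233 genes, 136 (58.4%) were above 0 on Xi in 3 groups or fewer, so this count does not set Hs6st2 apart. In XRRb_XiKO and in XRRb_XaKO alike, 93 of 261 tested genes were above 0 on Xi. In XRRc_XiKO and XRRc_XaKO, 88 and 85 were. On Xa, Hs6st2 was highest within its table in XistpA and XRRc_XiKO, and XRRb_XiKO was the next highest column of its table. The part of the Xa level in these values was not tested. A share under 1% in every group was seen for 51.5% of the 233 genes. By the size rule, 0 of the 21 pairs of gene and comparison changed on Xi. The share of all tested genes that changed on Xi was 13.7% in XistpA, 17.0% in XRR_KO and 7.04% in XRRa_KO against WT. It was 1.92% in XRRb and 2.30% in XRRc for XiKO against XaKO, 7.29% with dTAG in Rad21 degron cells and 0.722% with dTAG in Ctcf degron cells. A value of 0 in these tables can be a failed estimate.

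Genes next to the 3 were described from a list of 13 names, of which 12 were in the tables. Phf6, a chromatin-associated protein, Rap2c, a small GTPase, and Enox2 had 0 on Xi in XistpA, XRR_KO and WT. Hprt, the purine salvage enzyme, was at 0.702 FPKM on Xi in XRRb_XiKO, against 0 in XRRb_XaKO. This change of 1.27 met the rule, the only one of 7 tested neighbours to do so on Xi there, beside 1.92% of all tested genes. Mospd1, the farthest listed gene beyond Gpc3, was at 5.23 FPKM on Xi in XistpA and 1.80 in XRR_KO, against 0.0311 in WT (changes of 3.43 and 2.12). Its Xi share was 23.9% in XistpA and 11.8% in XRR_KO, against 0.153% in WT. Plac1, which lies between Hprt and Mospd1, was at 0.269 FPKM on Xi in XistpA and 0.249 in XRR_KO, against 0 in WT, with Xi shares of 17.3% and 6.48%. Its Xi changes of 0.62 and 0.58 did not meet the rule. Within the WT table, 7 of the 12 passed the filter, and on Xi 1 of the 7 rose in XistpA and in XRR_KO, Mospd1 each time, beside the 13.7% and 17.0% of all tested genes that changed on Xi. On Xa none of the 7 that passed there or of the 7 in the table of XiKO and XaKO met the rule, with medians between -0.33 and -0.08. The shares of all tested genes past the rule in XRRb (0.766% higher, 2.30% lower) and XRRc (1.15% each way) were also low, so 0 of 7 does not set these neighbours apart. On Xa Hprt, for example, was at 212 FPKM in XRRb_XiKO and 224 in XRRb_XaKO, and at 192 in XRRc_XiKO and 207 in XRRc_XaKO.

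**Figure D4:**
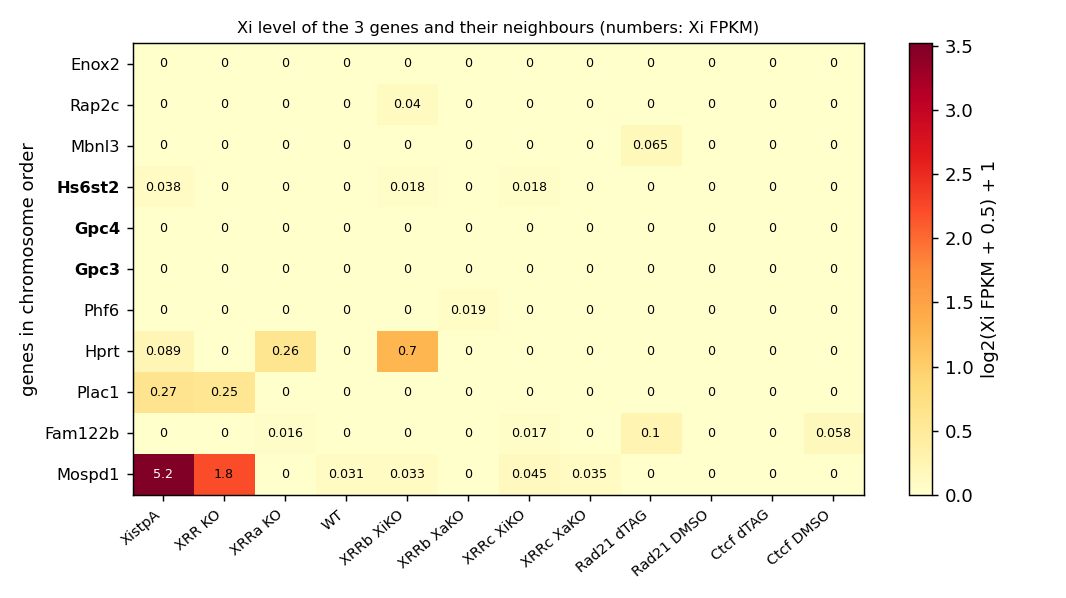
Xi level of the 3 genes (bold) and of the listed neighbours that reached 0.5 FPKM on Xa in any group, in chromosome order (rows) by group (columns), coloured by log2(Xi FPKM + 0.5) + 1 with the Xi FPKM printed in each cell. Gpc3 and Gpc4 are 0 in all 12 groups, and Mospd1 reaches 5.23 FPKM in XistpA and 1.80 FPKM in XRR_KO.

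Other X-linked genes of glycosaminoglycan and proteoglycan metabolism were few. Of 4 listed, the lysosomal enzyme gene Ids, which takes sulfate off heparan sulfate, and Slc35a2, which carries UDP-galactose into the Golgi, passed the filter in every table. The small proteoglycan gene Bgn and the chondroitin sulfotransferase gene Chst7 did not, and Chst7 was listed at 0 on both alleles in all groups. Of the 14 pairs of gene and comparison, 0 met the rule on Xa or Xi. On Xa, 0.370% to 6.48% of all tested genes were higher by it and 0.370% to 15.0% lower over the 7 comparisons. On Xi, 0.722% to 17.0% met it in either direction, so a count of 0 does not set this list apart. Ids was at 2.09 FPKM in XRR_KO, against 1.11 in WT, a change of 0.68. Slc35a2 was at 1.32 FPKM with dTAG, against 2.66 with DMSO, in Rad21 degron cells, a change of -0.79. Of 8 listed genes related to growth factors or Wnt signals, 3 passed the filter. Of their 21 pairs, 1 met the rule on Xa and 1 on Xi. Amer1, a regulator of Wnt signalling, rose on Xa in XRR_KO to 3.68 FPKM, against 1.52 in WT (1.05). Atp6ap2, a proton pump accessory protein that also acts in Wnt signalling, rose on Xi in XRR_KO to 1.23 FPKM, against 0.0580 in WT (1.64), and was at 61.1 and 107 FPKM on Xa. In XRR_KO, 17.0% of all tested genes met the rule on Xi, and on Xa 1.11% were higher and 3.70% lower. Porcn, which attaches a lipid to Wnt proteins, was at 14.7 FPKM on Xa in XistpA, against 10.9 in WT (0.42), and met the rule in no comparison. Fgf13, Fgf16, Figf, Bmp15 and Chrdl1 did not pass, and none reached 1 FPKM in any group.

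The pattern over the 12 columns was compared between genes as the Pearson correlation of log2(Xa FPKM + 0.5), centred on the mean of each table, over 233 genes. The 12 columns share tables and so their controls and scaling, and no p is given. Between Gpc4 and Hs6st2 the correlation was -0.70, between Gpc3 and Gpc4 it was 0.28, and between Gpc3 and Hs6st2 it was -0.15. Gpc4 and Hs6st2 ranged most in the XRRb and XRRc columns, with log2 ranges of 1.62 and 2.14, against 1.11 and 0.59 beside WT. The value of -0.70 is therefore not independent of the contrasts already given. The genes most like Gpc3 were Upf3b (0.74), Ngfrap1 (0.73), Xist (0.67), Wbp5 (0.66) and Bex1 (0.66). Xist was at most 0.0765 FPKM on Xa, so its likeness rests on very low values. Those most like Gpc4 were Alg13 (0.82), Maoa (0.77), Zdhhc15 (0.76), Pdzd11 (0.75) and Tceal8 (0.75). Those most like Hs6st2 were Cdk16 (0.71), Gspt2 (0.48), Maged1 (0.40), Bhlhb9 (0.35) and Xlr (0.32), of which only Cdk16 exceeded 0.5. Cdk16 varied less than Hs6st2, with 10.5 FPKM in XRRb_XiKO and 8.32 in XRRb_XaKO.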

How the data were processed

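StringTie 2.1.1, HISAT2 2.2.0, Trim Galore 0.6.4 and the build mm9 appear in the submitters' processing notes, without roles. Per the labels' protocols, libraries were Smart-seq2, which selects polyadenylated RNA and keeps no strand. No source used here says how reads were assigned to Xa or Xi. FPKM values were deposited by the authors in 24 columns, merged over the samples of a group. In the Ctcf table, columns give the treatment alone and were matched by elimination and the table's name. The planned limma test needs sample-level values and could not be run.

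The filter kept genes whose summed FPKM of both alleles had a mean of at least 1 across the columns of a table. Changes used a pseudocount of 0.5 FPKM. The 3 members, the gene lists, the comparisons and the rules were chosen with earlier results of these data known. Named genes were the members, measured genes of the lists, the 5 genes most like each member, and Xist. Transcripts of the 3 genes (GENCODE M21) were aligned to those of all other genes with minimap2 2.31, and 0 aligned at 95% identity over 50% of the length. Libraries are unstranded, so reads of Gpc3 and its antisense genes cannot be told apart. Of these, A630012P03Rik reached at most 0.224 FPKM on Xa, and Gm14582 was listed in no group. Computation used matplotlib 3.10.9, pandas 2.3.3, numpy 2.4.6 and Python 3.11.15.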

Additional observations from a re-analysis of the deposited data

Results flagged for a closer look

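Gpc3 on Xa moved in opposite directions in the XRRb and XRRc cells when XiKO was set against XaKO. Its values were 20.0 FPKM in XRRb_XiKO and 9.18 in XRRb_XaKO, and 10.0 in XRRc_XiKO and 30.4 in XRRc_XaKO. The log2 changes differed by 2.64 between XRRb and XRRc. With 1 merged column a group the difference was not tested. The 2 XaKO columns differed by more (-1.67) than either XiKO change, and the part of those columns in the difference was not tested.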

How the results depend on the processing

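The alternatives were pseudocounts of 0.1 and 1, no filter, a stricter one of 5 FPKM, scaling of columns to 1 shared median on Xa, and centring of changes on their Xa median. Of 118 values of the 3 genes on Xa under these 6 settings, 117 kept their side of the size rule, and no change past the rule reversed. The exception was Gpc4 in XRRc_XiKO, at -1.10 with a pseudocount of 0.1. The filter settings only decide which genes are counted. They could not move a gene's change, so their values among the 118 were bound to agree. The filter of 5 FPKM left out Gpc4 or Hs6st2 in 8 of 21 pairs of gene and comparison. With the XaKO columns exchanged, added after the data were seen, Gpc3 reversed to -0.59 (XRRb_XiKO) and 0.12 (XRRc_XiKO). Hs6st2 in XRRb_XiKO was at 0.93, no longer past the rule, and Gpc4 in XRRc_XiKO at -1.62, and XRRb_XiKO had 3 genes past the rule on Xa in place of 8. These changes follow from the exchanged column. Counts on Xa moved by over 1.5 times in 9 of 42 cases. With the filter of 5 FPKM, which tests fewer genes, they were 2 for XistpA, 8 for XRR_KO, 0 for XRRa_KO, 2 for XRRb, 3 for XRRc, 34 for Rad21 and 6 for Ctcf, against 12, 13, 2, 8, 6, 53 and 17. Without a filter they were 6 for XRRa_KO and 12 for XRRc. No paired analysis was possible because each group is 1 merged column, and leaving out replicates could not be run for the same reason. Depth is unknown, which limits what a listed 0 on Xi can show.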

Other observations

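On Xa, 2 of the 5 tested neighbours rose with dTAG in Rad21 degron cells, where 6.48% of all tested genes (16 of 247) were higher. Fam122b was at 3.79 FPKM with dTAG and 1.17 with DMSO (1.36), and Mospd1 at 16.1 with dTAG and 6.48 with DMSO (1.25), while Gpc3, on the other side of Hprt, was at 12.3 and 24.4. Hprt (-0.36) and Plac1 (-0.35), which lie between Gpc3 and these 2 genes, did not meet the size rule. Rap2c, the next tested gene on the Hs6st2 side, was at 6.19 with dTAG and 7.43 with DMSO (-0.25).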
